A study of Arabidopsis thaliana with 8 samples.

Results

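Transcript levels were compared between the hours 00h and 16h in rosettes of *Arabidopsis thaliana* pgm, a mutant in the Col-0 background that lacks the phosphoglucomutase of the plastid and stores almost no starch in its leaves. The 2 arrays of 00h, lettered A and B, were set against the single array of 16h, and the single array of 20h served only to place the change between them. These are 4 of the 8 arrays of a day series that also has 1 array at 04h, 1 at 08h and 2 at 12h. Every array carries the same genotype with no treatment, plants were 5 to 6 weeks old, and each sample pooled 15 whole rosettes from 5 harvests of 3. A wild type was not analysed here. A gene was taken as a member of the comparison where both 00h arrays lay at least 1 log2 unit above the 16h array, or both at least 1 unit below it, on log2(intensity + 16). This chose 753 of 22746 probe sets, 254 higher and 499 lower at 00h, or 1.12% and 2.19% of all. These values chose the members, so for the members they are a description. A gene name was available for 112 of the members that were higher and for 206 of those that were lower.

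The labels give the hour of each array but not when the lights were on. Placing 16h, 20h and 00h in the same night comes from the question put to the data, and taking 00h as following 20h treats the day as a cycle. The labels also leave unsaid whether A and B are separate pools of plants. P-values therefore rest on array-to-array spread that could be technical alone, and the lone arrays of 16h and 20h were assumed to vary like the pairs of 00h and 12h.

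In wild-type leaves, starch made in the light is broken down through the night and feeds sucrose synthesis and respiration until dawn. A leaf without phosphoglucomutase in its plastids cannot pass photosynthate into starch, holds more soluble sugar in the light, and runs out of sugar early in the night. Sugar depletion is known to raise a set of starvation genes, among them genes of amino acid breakdown and autophagy, and to lower genes of growth and protein synthesis. The circadian clock drives a further set of genes through the night whether or not sugar is short.

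All 4 arrays had a mean of 100 after trimming 2% at each end, so a difference in total mRNA per rosette between hours cannot be seen. Over the 13647 probe sets tested, log2 values of 00h A and 00h B correlated at 0.967, those of 20h with 00h at 0.962 and 0.960, and those of 00h with 16h at 0.918 and 0.912. The arrays of 20h and 16h correlated at 0.963. Of these 4, array 00h A stood apart in its hybridisation controls, with a geometric mean of 575 against 186 on 00h B, 152 on 16h and 158 on 20h, and in its 25S rRNA probe set, with an intensity of 2995.5 against 256.3, 305.2 and 496.9 on the same arrays. Array 12h A was alike, with controls at 592 against 190 on 12h B and 25S rRNA at 869.3 against 65.8. Both pairs that give the spread of the limma fit thus join an array with high controls to one with low controls. The brightest probe sets of 00h A were also raised: over the brightest 5% of those tested the median difference from 16h was 0.18 log2 units on 00h A and −0.08 on 00h B. For the members the 2 arrays were alike, with a median difference from 16h of 1.49 on 00h A and 1.46 on 00h B for those higher, and −1.33 and −1.37 for those lower. The leaf marker RCA, the activase of Rubisco, was bright on all arrays, at 6704.5 and 2976.3 at 00h, against 3249.6 at 16h.

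The difference was moderate for most members and large for a few. The median difference was 1.48 log2 units among the members that were higher and −1.35 among those lower. The change went past 2 units on both arrays for 47 probe sets above 16h and 34 below it. It went past 3 units for 13 above and 0 below. In the limma fit over all 8 arrays, 568 of the 13647 probe sets differed between 00h and 16h after Benjamini-Hochberg adjustment at 0.05. Of these 217 were higher at 00h (1.59% of those tested) and 351 were lower (2.57%), with a median difference over all tested probe sets of −0.08. Members were called in 209 of 242 tested cases that were higher and 342 of 451 that were lower, a count that the choice of members largely fixes. Another 12 members that were higher and 48 that were lower were too dim to be tested. The number of calls depended on leaving out dim probe sets: with all 22746 in the fit, limma called 14, of which 13 were higher. Of the 45 calls among the 111 genes named by rule, the 1 for AT2G41250 was then left, so every call given below for a member of a gene list was lost in that fit. The split depended on the scaling: with every array set to 1 median, the median of all tested probe sets was 0.12 rather than −0.08, and 382 were called higher and 211 lower. The share of calls that were higher was then 64.4%, against 38.2% with the deposited scaling.

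**Figure D1:**
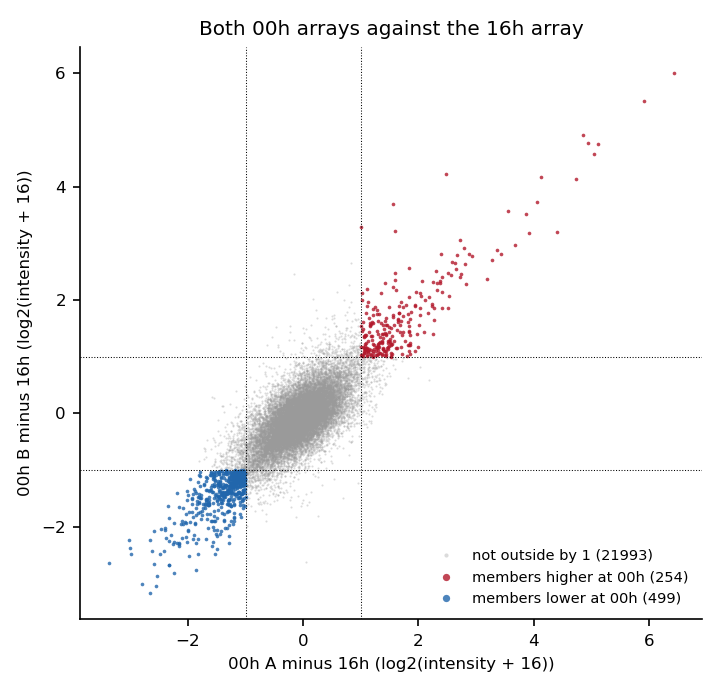
Difference of 00h A from 16h (horizontal axis) and of 00h B from 16h (vertical axis) on log2(intensity + 16), 1 point per probe set. The 254 members that were higher lie in the upper right and the 499 that were lower in the lower left, beyond the dotted lines at 1 and −1, and the points furthest out reach 6 units on both arrays among the higher members, while no lower member is past 3 units on both.

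The limit of 1 unit fell within a continuous spread of values. Just inside it, AT3G60300 was higher by 1.003 on its nearer array, and just outside it the glyoxalase gene GLX2-5 was higher by 0.999. Among those lower, AT2G18330 was just inside at −1 and AT1G80850 just outside at −0.999. Taken alone, 00h A was higher by 1 unit for 452 probe sets and 00h B for 496, and 56.2% and 51.2% of these were also higher on the other array. For those lower the counts were 872 on 00h A and 861 on 00h B, with 57.2% and 58% shared.

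AT2G41250, a hydrolase of the haloacid dehalogenase family, had the largest difference among named genes. Its intensity was 1700.4 and 1328.2 at 00h, against 101 at 16h, with 402.8 at 20h. Both 00h arrays lay far above 16h and the 20h array lay between, and the difference was 3.70 ± 0.27 log2 units (SE, 2 arrays against 1, limma adjusted p = 8.59e-05). AT1G55960, of the START domain superfamily of lipid-binding proteins, stood at 793.5 and 480.7 at 00h, against 47.7 at 16h. Its 20h value of 95.8 was still close to 16h, and its rise of 3.32 ± 0.32 had a limma adjusted p of 0.000969. AT5G54130 had 409.2 and 323.9 at 00h, against 48.4 at 16h. A separate probe set of the same gene gave 163.1 and 156.8 at 00h, against 30.6 at 16h, so both probe sets rose, by 2.56 ± 0.27 and by 1.92 ± 0.36 (limma adjusted p = 0.00129 and 0.0178).

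HYH, a bZIP factor closely related to HY5 that acts in light signalling, had 329.6 and 360.3 at 00h, against 38.3 at 16h, and 151.9 at 20h. The 00h arrays differed little from each other, and the rise was 2.73 ± 0.28 (limma adjusted p = 0.0011). AT1G69570, a Dof factor of the CDF group that represses flowering genes, had 123.3 and 100.3 at 00h, against 10.3 at 16h. From 16h to 00h it rose by 2.27 ± 0.29 (limma adjusted p = 0.00277). It was still at 19.8 at 20h, so most of the rise lay after 20h, but that step did not pass on its own (limma adjusted p = 0.0522). AFR, an F-box protein of far-red light signalling, had 130.1 and 118.6 at 00h, against 16.3 at 16h, and rose by 2.12 ± 0.28 (limma adjusted p = 0.0033).

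AT5G15950, an S-adenosylmethionine decarboxylase of polyamine synthesis, had 270.7 and 266.9 at 00h, against 41.6 at 16h, and 124.3 at 20h. AT3G21670, a nitrate transporter of the NPF family, had 861.7 and 541.2 at 00h, against 137 at 16h, and AT3G57020, of the strictosidine synthase-like family, had 510.5 and 502.5, against 76.8. In all 3 the 00h arrays lay above both 20h and 16h, and limma gave differences of 2.31 ± 0.25, 2.19 ± 0.31 and 2.49 ± 0.27 (adjusted p = 0.00136, 0.00482 and 0.00136). AT1G19540, of the isoflavone reductase-like family, had 520.3 and 510.8 at 00h, against 87.9 at 16h, and had come to 409.7 by 20h. AT1G73480, a lipase of the monoacylglycerol lipase family, had 167.4 and 176.2 at 00h, against 22.4 at 16h, and was only at 43.7 at 20h. These 2 rose by nearly the same amount, 2.35 and 2.29 log2 units, but the 20h array had reached 86.4% of the difference in AT1G19540 and 27.8% in AT1G73480. AT3G01060 had 488.5 and 463.1 at 00h, against 80.8 at 16h, and rose by 2.34 ± 0.25 (limma adjusted p = 0.00126).

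In 2 of the 14 named genes with the largest rise the 00h arrays were far apart. The jasmonate and ethylene marker PDF1.2, a defensin, had 216.8 on 00h A and 1116 on 00h B, against 99.6 at 16h. The 20h array stood at 285.4, above 00h A, and the difference of 2.15 ± 0.67 did not pass the test (limma adjusted p = 0.112). AT5G39520 had 96 on 00h A and 331.3 on 00h B, against 21.2 at 16h, and its difference of 2.41 ± 0.53 passed with an adjusted p of 0.0353. Without 00h A the difference of PDF1.2 was 3.29 and without 00h B it was 1.01.

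**Figure D2:**
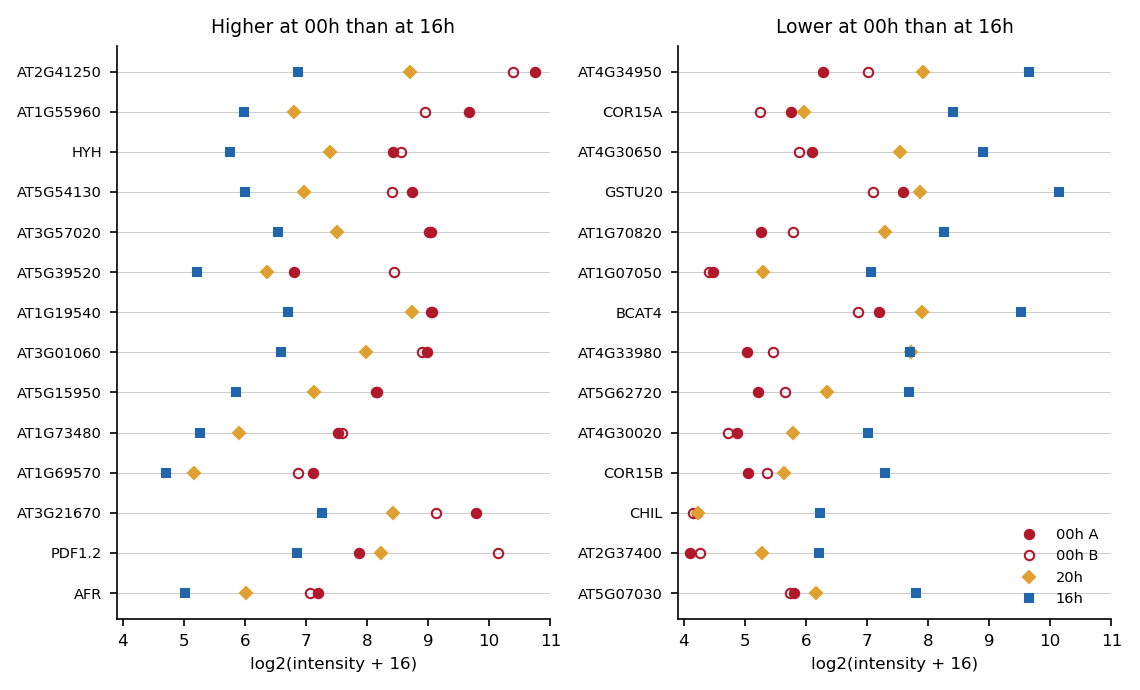
Log2(intensity + 16) of the 14 named genes with the largest rise (left) and the 14 with the largest fall (right) on each array: 00h A (filled circles), 00h B (open circles), 20h (diamonds) and 16h (squares). The 20h value lies between 16h and 00h for most genes, AT4G33980 is the gene whose 20h value sits on its 16h value, and the circles are far apart for AT5G39520 and PDF1.2.

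The largest fall among named genes was that of AT4G34950, a transporter of the major facilitator family. It had 61.7 and 113.4 at 00h, against 790.2 at 16h, and 226.3 at 20h, a difference of −3.01 ± 0.33 (limma adjusted p = 0.00139). Several genes that cold is known to raise fell. COR15A, whose product protects chloroplast membranes in the cold, had 38 and 21.9 at 00h, against 324.2 at 16h, and its neighbour and relative COR15B had 17.1 and 25, against 140.7. AT4G30650, a small membrane protein of the low-temperature and salt responsive family, had 52.5 and 43.5 at 00h, against 461.3 at 16h. The 00h arrays of each gene lay below 16h, as the choice of members requires, and they fell by 2.91, 2.09 and 2.90 log2 units (limma adjusted p = 0.00203, 0.00282 and 0.000989). The 20h values were 46.7 for COR15A and 34.2 for COR15B, close to 00h, and 170.1 for AT4G30650, about midway.

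BCAT4, the aminotransferase that starts the chain elongation of methionine for glucosinolates, had 130.7 and 99.3 at 00h, against 718.4 at 16h. GSTU20, a tau-class glutathione transferase, had 177.4 and 121.5 at 00h, against 1115.7 at 16h. The 20h arrays read 222.1 for BCAT4 and 218.4 for GSTU20, and both genes fell, by 2.50 ± 0.29 and 2.79 ± 0.30 (limma adjusted p = 0.00173 and 0.00136). CHIL, the chalcone isomerase-like protein of flavonoid synthesis, was near the bottom of the scale at 2.6 and 1.8 at 00h, against 58.8 at 16h. At 20h it stood at 2.9, so 00h and 20h were both near background and have no order. Its fall of 2.04 ± 0.28 is set by the added 16 at these intensities and is a low estimate of the fold (limma adjusted p = 0.00387).

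AT1G70820, which is annotated as a putative phosphoglucomutase and is not the gene mutated here, had 22.5 and 39.2 at 00h, against 290.4 at 16h, and fell by 2.73 ± 0.32 (limma adjusted p = 0.00173). AT1G07050, a protein with a CCT motif as in the CONSTANS family, had 6.3 and 5.3 at 00h, against 118.7 at 16h. Its fall of 2.63 ± 0.32 is a low estimate of the fold, since the added 16 weighs heavily at such intensities (limma adjusted p = 0.00226). The proteases AT4G30020, a subtilase, and AT5G07030, an aspartyl protease, had 13.2 and 10.4, and 39.8 and 37.6 at 00h, against 113.7 and 207.8 at 16h. AT5G62720, of the HPP family of membrane proteins, had 21.3 and 34.4 at 00h, against 191.3 at 16h, and AT2G37400, a tetratricopeptide repeat protein, had 1.1 and 3.3, against 58.4. These 4 genes fell by 2.03 to 2.26 log2 units with limma adjusted p between 0.00277 and 0.0069, and their 20h values lay between the hours. For AT4G30020 and AT2G37400 the 00h values lie below the added 16, so these falls are low estimates of the fold.

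The probe sets with the largest differences of all have no single gene in the platform's table, that is none or several, and cannot be named here. The 10 highest members were all of this kind. Probe set 261569_at had 2028.6 and 1502.9 at 00h, against 7.7 at 16h, and 337.8 at 20h, a difference of 6.22 ± 0.28 (limma adjusted p = 8.15e-06). Probe set 258497_at had 2026.6 and 1515.4 at 00h, against 17.7 at 16h. Both were near background at 16h and among the bright probe sets at 00h. Among those lower, 266693_at had 162.4 and 126.2 at 00h, against 1024.3 at 16h, and it was dim from 04h to 12h, between 6.5 and 13.4. Probe set 249850_at had 13.2 and 29.2 at 00h, against 218.5 at 16h.

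The 20h array, which took no part in choosing the members, lay between 16h and both 00h arrays in 240 of the 254 members that were higher (94.5%) and in 453 of the 499 that were lower (90.8%). Over all tested probe sets this held for 36.5%, and for 47.3% of those in which 16h lay outside the 00h arrays by any distance. Both ends of the interval chose the members and lie at least 1 log2 unit apart by that choice. The probe sets behind the 36.5% and 47.3% have no such gap. A wide gap holds a 20h value more easily, so the percentages are not like for like. The share of the difference reached at 20h had a median of 50.6% in the members that were higher, with quartiles of 35.9% and 63.0%. It had a median of 54.8% in those lower, with quartiles of 38.3% and 73.8%. A share between 25% and 75% was found in 204 of the higher and 335 of the lower members. The share uses the 16h and 00h arrays that chose the members, and its 20h end is a single array. With the members chosen anew and the share taken on 00h B alone, the medians were 0.432 over 496 higher and 0.481 over 861 lower members, as a fraction. On 00h A alone they were 0.441 over 452 and 0.461 over 872, so members and 00h level differ together in these values.

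**Figure D3:**
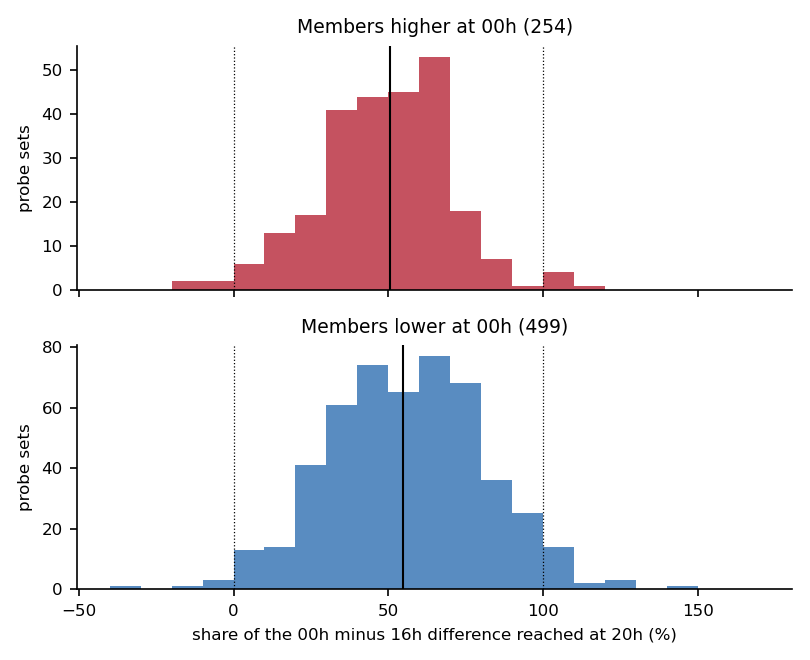
Number of probe sets (vertical axis) by the share of the 00h minus 16h difference that had been reached at 20h, in percent, for the 254 members higher at 00h (top) and the 499 lower at 00h (bottom). Dotted lines mark the 16h level at 0 and the 00h level at 100, and solid lines the medians of 50.6% and 54.8%: both distributions are broad and centred near the middle, and the lower members reach further to the right.

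Some members were at or near their 00h level by 20h. A share of 75% to 100% was found in 13 of the higher and 93 of the lower members, and a share above 100% in 5 and 20. These counts are for the added 16, and the median shares of the 2 groups changed order with 1 added. The 5 higher members above 100% were picked out after their values were seen. AT1G19530 had 237.6 and 190.7 at 00h, against 38 at 16h, and 236.7 at 20h. AT4G39675 had 110.8 and 123.9 at 00h, against 21 at 16h, and 120.7 at 20h, and AT2G25590 had 100 and 99.9 at 00h, against 36.5 at 16h, and 110 at 20h. In each of them 20h was already at the level of 00h. The other 2 have no single gene in the table.

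A change that lay mainly after 20h, with a share under 25%, was found in 32 members that were higher and 51 that were lower. Those below 0, in which 20h lay on the far side of 16h, were 4 and 5. AT4G33980, known as COR28 and repressed by clock proteins, had 16.9 and 28 at 00h, against 191.6 at 16h, and 194.2 at 20h. From 16h to 00h it fell by 2.45 ± 0.41 (limma adjusted p = 0.0116). Its level at 20h was that of 16h, so the fall lay after 20h, but that step did not pass on its own (limma adjusted p = 0.0807). AT2G03310 had 10.7 and 13.5 at 00h, against 97.3 at 16h, and 103.4 at 20h, a difference of −2.01 ± 0.29 (limma adjusted p = 0.00554). Its 00h values lie below the added 16, so this is a low estimate of the fold. Also picked out after their values were seen, AT1G80130 had 159.4 and 125.7 at 00h, against 42.7 at 16h, and 33.9 at 20h. AT2G30540, a member of the glutaredoxin family, had 229 and 192.1 at 00h, against 78.2 at 16h, and 72.3 at 20h. The dim gene AT3G20340 had 23.7 and 16.6 at 00h, against 69.5 at 16h, and 73.9 at 20h. The other 4 of these 9 have no single gene in the table.

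The 2 steps were also tested on their own. Between 20h and 16h limma called 1 of 13647 probe sets (0.00733%), the unnamed 261569_at, with 714 at an unadjusted p under 0.05. Between 00h and 20h it called 17 higher (0.125%) and 2 lower (0.0147%), with 859 at an unadjusted p under 0.05. The step from 20h to 00h has 2 arrays on one side and the step from 16h to 20h has 1 on each, so the tests differ in precision, and the 2 counts were not tested against each other. Over all tested probe sets the SD was 0.38 for 20h minus 16h, 0.37 for 00h minus 20h and 0.57 for 00h minus 16h. Between 00h A and 00h B, arrays of the same hour, it was 0.39. The value for 00h minus 20h uses a mean of 2 arrays and that for 20h minus 16h single arrays. The SDs therefore do not compare the size of the steps. The named genes called after 20h were AT1G55960, higher at 00h than at 20h by 2.50 ± 0.32 (limma adjusted p = 0.0157), AT2G41250, higher by 1.86 ± 0.27 (adjusted p = 0.0279), and AT2G03310, with a difference of −2.09 ± 0.29 (adjusted p = 0.0275).

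Most genes that sugar starvation is known to raise lay above their 16h level at 00h, and few passed the test. The list was written from textbook knowledge with earlier results of these data known, and 13 of its 28 genes were tested. Of these, 3 passed the test and were higher at 00h and 0 passed as lower, where 1.59% and 2.57% of all tested probe sets did. The same 2 shares stand beside the calls of every list below. A difference above 0 was found in 12, and the median was 0.71, beside −0.08 over all tested probe sets. AT1G72060 had 2507 and 2307.3 at 00h, against 772.2 at 16h, AT2G05540, a glycine-rich protein, had 1576.2 and 1563.4, against 537.5, and AT4G27450 had 1928.9 and 1654.5, against 688.2. The 3 genes rose by 1.62 ± 0.28, 1.52 ± 0.27 and 1.36 ± 0.30 (limma adjusted p = 0.0143, 0.0153 and 0.0369). With a pseudocount of 1, and with no intensity trend in the fit, 2 members of the list passed rather than 3. AKINBETA1, a subunit of the SnRK1 kinase that responds to low energy, had 1806.3 and 1372.4 at 00h, against 941.8 at 16h, and did not pass (adjusted p = 0.212). AT3G15630 was the member with a difference below 0, at 1426.1 and 1052.1 at 00h, against 1922.9 at 16h (adjusted p = 0.259). The list differed between the 00h arrays, with a median of 0.95 on 00h A and 0.37 on 00h B.

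These starvation genes had already been high at 16h. The median level of the list on log2(intensity + 16) was 5.86 at 04h, 5.78 at 08h, 5.89 and 5.76 at 12h, 9.62 at 16h, 10.37 at 20h, and 10.78 and 10.32 at 00h. AT1G72060 had 25.5 to 43.3 on the arrays of 08h and 12h. The difference between 00h and 16h came on top of a level far above that of 04h to 12h.

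Amino acid breakdown genes were highest at 20h in most cases. Of 22 listed genes 9 were tested, 0 passed the limma test for 00h against 16h, and the median difference was 0.23. The arrays of 20h and 00h differed for them: 20h lay above 16h in 9 of 9, with a median of 0.66, and 00h lay below 20h in 7 of 9, with a median of −0.43. MGL, the methionine gamma-lyase, had 704.1 and 839.9 at 00h, against 411.3 at 16h, and was highest at 20h with 1361.5. MCCA, of the methylcrotonyl-CoA carboxylase in leucine breakdown, had 942.6 and 812.3 at 00h, against 744.8 at 16h, and 1291 at 20h. AT4G33150, the bifunctional enzyme of lysine breakdown, had 188.7 and 300 at 00h, against 109.6 at 16h, and 342.6 at 20h. IVD, the isovaleryl-CoA dehydrogenase, had 421.7 and 657 at 00h, against 203.8 at 16h, and 513.3 at 20h. AT2G26800, the hydroxymethylglutaryl-CoA lyase, was the member that met the range rule, at 553.9 and 498.3 at 00h, against 236.4 at 16h, with a limma adjusted p of 0.0541. The 20h array is single, and no step of these genes passed the test. IVD, MCCA and MCCB are also in the list of sugar starvation genes, so the lists overlap and are not separate results.

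Genes of autophagy, by which cells recycle their own contents, had small differences. All 10 tested members were above 0 for 00h minus 16h, from 0.23 to 0.90 with a median of 0.37, and 0 passed the limma test. ATG8B had 98.7 and 158 at 00h, against 59.5 at 16h (adjusted p = 0.162), and APG8H had 1090.2 and 1091.8, against 696.1 (adjusted p = 0.256). ATG8E, which was at 35.3 to 50.1 from 04h to 12h, had 869.2 and 989.2 at 00h, against 766.8 at 16h. For 4 members, ATG8E among them, 20h was below 16h.

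**Figure D4:**
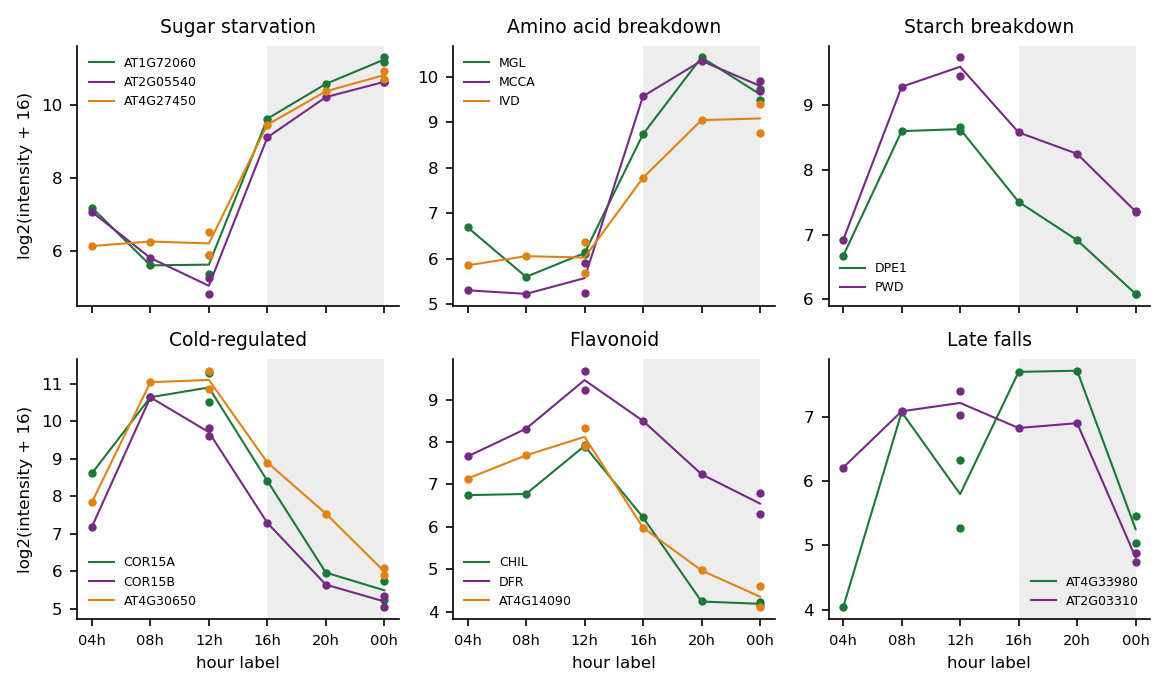
Log2(intensity + 16) over the day for named genes of 6 groups, with 1 point per array, lines through the mean of each hour, and 00h drawn after 20h. The shaded band spans 16h to 00h: the starvation genes drawn climb on from a level that is already high at 16h, MGL and MCCA are highest at 20h, starch breakdown, cold-regulated and flavonoid genes go down through the band, and AT4G33980 and AT2G03310 drop only after 20h. The starvation genes drawn are the 3 of 13 tested that passed for 00h against 16h. Of the 13, 5 were lower at 00h than at 20h.

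The 5 starch genes that could be named lay below their 16h level at 00h, and 2 passed the test. DPE1, the plastid disproportionating enzyme that acts on maltotriose, had 51.7 and 51.7 at 00h, against 165.8 at 16h, and 104.5 at 20h. PWD, the phosphoglucan water dikinase that opens the starch granule to attack, had 147.4 and 148.7 at 00h, against 367.4 at 16h, and 288.6 at 20h. Both fell, by 1.43 ± 0.25 and 1.22 ± 0.26 (limma adjusted p = 0.0143 and 0.0303), and they are the 2 tested genes of 15 listed for starch breakdown. The call for PWD was lost with every array set to 1 median (limma adjusted p = 0.0615). Of starch synthesis, 3 of 15 listed genes were tested and 0 passed. The branching enzyme SBE2.2 had 146.8 and 133.4 at 00h, against 312 at 16h (adjusted p = 0.0661), and the ADP-glucose pyrophosphorylase subunits APL3 and APL4 had 16.1 and 14.2, and 4.2 and 2 at 00h, against 42.4 and 14.6 at 16h.

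Few genes of the clock have a name in the table. Of 12 listed evening genes 3 were tested and 1 passed, AT4G33980, described above. GI, the clock protein GIGANTEA, was near background throughout the interval, with 9.2 and 12 at 00h, against 7.8 at 16h, and 4.6 at 20h. COR27, the close relative of AT4G33980, had 176.8 and 217.6 at 00h, against 201.8 at 16h, and 233.1 at 20h, a difference of −0.04 ± 0.27 (limma adjusted p = 0.961). At 04h these 2 genes stood at 0.8 and 0.4, and the difference between their courses was not tested. Of 14 listed morning genes CCL alone was tested, at 1544.6 and 1470.9 at 00h, against 2572.6 at 16h (difference −0.76 ± 0.38, adjusted p = 0.307).

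All 5 tested genes of 14 listed for the cold response lay below 0, with a median of −2.09, and 3 passed as lower, those given above. Over all tested probe sets 2.57% passed as lower and 1.59% as higher. LTI30, a dehydrin, had 22.8 and 14.1 at 00h, against 57 at 16h (limma adjusted p = 0.239). COR47, also a dehydrin, had 233.3 and 168.6 at 00h, against 251.5 at 16h (adjusted p = 0.717). Of 14 flavonoid genes 7 were tested, with a median of −1.45, and 4 passed as lower and 0 as higher. Besides CHIL, these were DFR, the dihydroflavonol reductase, with 95.9 and 62.5 at 00h, against 346.1 at 16h, AT4G14090, an anthocyanin glucosyltransferase, with 8.3 and 1.2, against 47.2, and AT1G06000, a flavonol rhamnosyltransferase, with 3.6 and 15.6, against 52. These 3 fell by 1.95 ± 0.31, 1.63 ± 0.33 and 1.45 ± 0.33 (adjusted p = 0.00772, 0.0243 and 0.0369), and the call for AT1G06000 was lost without 00h A (adjusted p = 0.054), with 1 median, with quantile normalization and with a pseudocount of 1. With a pseudocount of 64 the call for AT4G14090 was lost as well, which left 2 calls in the list. At 00h AT4G14090 and AT1G06000 lay below the added 16, so their falls are low estimates of the fold. UGT78D2, a flavonoid glucosyltransferase, was at 157.9 and 164.5 at 00h, against 121.4 at 16h (adjusted p = 0.574).

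Genes of cell wall loosening lay mostly below 0. Of 68 expansin and XTH genes, which loosen and remodel the wall, 27 are named and 11 were tested. Below 0 were 10 of these, the median was −0.43, and 3 passed as lower, where 2.57% of all tested probe sets did. EXPB3 had 22.9 and 21.7 at 00h, against 127.7 at 16h, EXLA1 had 19.4 and 26.8, against 104.6, and EXPA9 had 13.5 and 18.8, against 60.9. They fell by 1.91 ± 0.27, 1.63 ± 0.30 and 1.26 ± 0.27 (limma adjusted p = 0.00506, 0.0174 and 0.0329), the last call being lost with quantile normalization (adjusted p = 0.0557) and with 1 median (adjusted p = 0.054). EXPA8 was the member above 0, at 184.9 and 72.3 at 00h, against 40.9 at 16h (adjusted p = 0.145). With 1 median, 8 rather than 10 of the 11 were below 0. With a pseudocount of 1, 2 members of the list passed rather than 3.

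Nearly all cytosolic ribosomal protein genes lay below their 16h level at 20h, by small amounts. Of 195 loci, a list added after the table had been opened, 100 were tested. For 00h minus 16h, 79 lay below 0 with a median of −0.28, beside a median of −0.08 over all tested probe sets. Of the 100, 3 passed as lower and 0 as higher, where 2.57% and 1.59% of all tested probe sets did. AT5G07090, of the small subunit protein S4, had 338.3 and 383 at 00h, against 879.8 at 16h, and 453.1 at 20h. AT3G06680 and AT3G06700, which both encode the large subunit protein L29, had 110.7 and 124, and 286.1 and 269.4 at 00h, against 278.4 and 644.8 at 16h. At 20h, 99 of the 100 lay below 16h, with a median of −0.35, and from 20h to 00h the median was 0.08. The processing bears on this list. With 1 median the 00h minus 16h median was −0.07, with 53 of 100 below 0 and none of the 3 calls kept. The 20h minus 16h median was then −0.23, with 84 below 0. Quantile normalization gave a list median of −0.37 and 12 lower calls, where 368 of all 13647 were called lower. A block for arrays with high hybridisation controls gave 23 lower calls and 1 higher, where 886 and 544 of all were. A block for the replicate letter gave 22 and 1, where 1082 and 665 of all were. Related ribosomal genes can share probes, which the table does not show.

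Some photosynthesis genes, the tested ones of the Calvin-Benson cycle among them, differed between the 00h arrays. For the Calvin-Benson cycle, 3 of 18 listed genes were tested and 0 passed. RCA is given above, PRK, the phosphoribulokinase, had 5351.5 and 2805.7 at 00h, against 2948.8 at 16h, and SBPASE, the sedoheptulose-bisphosphatase, had 3166.8 and 1972.1, against 1922.6. In all 3 genes 00h A was high and 00h B was at or near the level of 16h, as 00h A also was for the brightest probe sets, and the part of this in the result was not tested. The list median was 0.86 on 00h A and −0.07 on 00h B. Of 18 light-harvesting genes 3 were tested and 0 passed: LHCB4.2, an antenna protein of photosystem II, had 2929.9 and 2456.1 at 00h, against 1179.8 at 16h (limma adjusted p = 0.112). Its relative LHCB4.3 had 676.3 and 719.8 at 00h, against 972.6 at 16h (adjusted p = 0.4). Of 12 photorespiration genes 3 were tested and 0 passed, with a median of 0.48. All 69 plastid-encoded genes of the table were tested and 0 passed, with a median of −0.19. That median was 0.08 on 00h A, −0.25 on 00h B, and 0.04 with 1 median, so no direction is given.

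Sugar transporters had 10 tested members of 45, of which 0 passed, with a median of −0.34. TMT1, a tonoplast sugar transporter, had 314 and 147.5 at 00h, against 630.8 at 16h, and 706.6 at 20h, a difference of −1.48 ± 0.39 (limma adjusted p = 0.0695). SWEET2, a vacuolar SWEET protein, had 600.2 on 00h A and 228.9 on 00h B, against 271.3 at 16h, so the 00h arrays lay on either side of 16h (adjusted p = 0.655). Of 5 tested glutathione transferases 1 passed as higher and 1 as lower, where 1.59% and 2.57% of all tested probe sets did. GSTU16 had 351.4 and 320.9 at 00h, against 133 at 16h, and rose by 1.24 ± 0.25 (adjusted p = 0.026), while GSTU20 fell, as given above. HIS1-3, a linker histone that drought is known to raise, had 105.3 and 69.6 at 00h, against 25.5 at 16h, and rose by 1.30 ± 0.31 (adjusted p = 0.0455), a call lost without 00h A (adjusted p = 0.0711). It was the only call among 5 tested genes of a list on chromatin and replication, whose other 4 members lay below 0. No member of that list passed with a pseudocount of 1. PORB, the light-dependent protochlorophyllide reductase, had 463.7 and 501.3 at 00h, against 1082.2 at 16h, just short of the threshold (adjusted p = 0.0565). It is 1 of 2 tested genes of 10 listed for chlorophyll synthesis. The other, CHLM, went the other way, with 1781.2 and 1326.7 at 00h, against 1142.4 at 16h (adjusted p = 0.563).

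Several lists gave no call. None of the tested members passed limma's test in the lists of cytochromes P450 (12 tested, median 0.28), UDP-glycosyltransferases (24 tested, median −0.09), WRKY factors (5 tested, median 0.01) and reference genes (4 tested, median 0.12). The lists of senescence, auxin response, lipid breakdown, wounding, MYB and NAC factors had 1 or 2 tested members each and 0 calls, such as WRKY53, with 107.8 and 146.2 at 00h, against 98.7 at 16h (adjusted p = 0.678). Another 8 lists, on clock output, trehalose phosphate, nitrate assimilation, ribosomal proteins by description, mitochondrial genes, ERF factors, heat shock proteins and the proteasome, had no tested member.

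**Figure D5:**
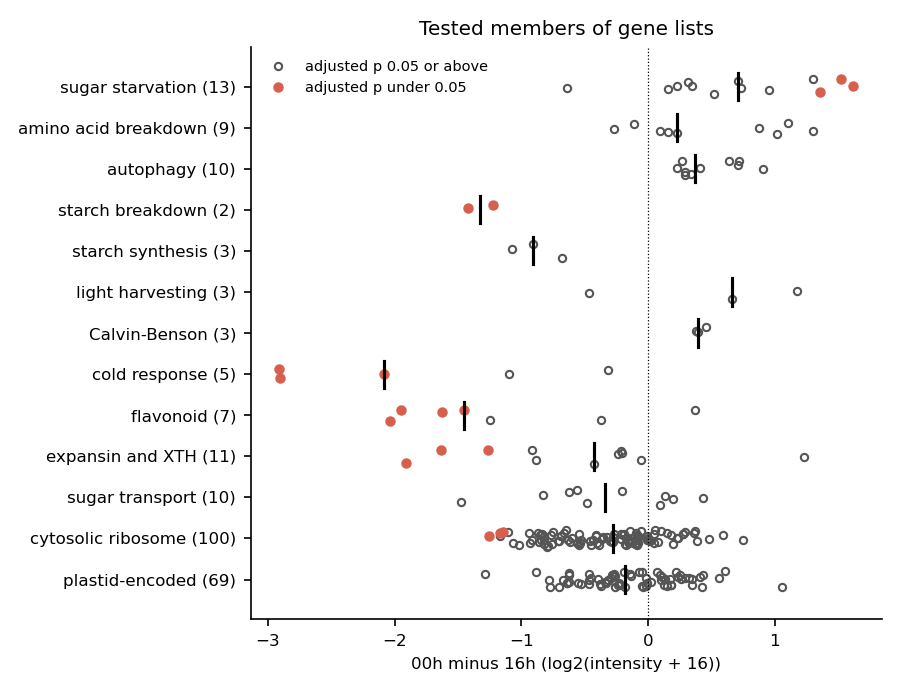
Difference of 00h from 16h on log2(intensity + 16) for the tested members of 13 gene lists, with the number tested in brackets, 1 point per gene and a bar at each list's median. Filled points passed limma's test: they lie to the right for sugar starvation and to the left for starch breakdown, cold response, flavonoid, expansin and XTH, and cytosolic ribosome. For the cytosolic ribosome they are 3 of 100, near the 2.57% of all tested probe sets called lower, a count that changed with the processing.

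In rosette tissue, fewer cells of a type and less RNA per cell cannot be told apart. Of 12 markers of other cell types and organs 3 could be named and were tested. PYK10, a glucosidase known as a root marker, had 300 and 271.8 at 00h, against 113.7 at 16h, and rose by 1.22 ± 0.25 (limma adjusted p = 0.0285). The guard cell factor FMA had 62.1 and 53 at 00h, against 41.5 at 16h (adjusted p = 0.651), and the phloem transporter SWEET11 had 1244.3 and 722.5, against 825.9 (adjusted p = 0.832). The summed intensity of the 3 was 1606.4 and 1047.3 at 00h, against 981.1 at 16h, and none was at 0. Their part in the results was not tested.

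Over the rest of the day, which the rule did not use, the members that were lower at 00h were at their highest around 08h and 12h. Their median level on log2(intensity + 16) was 7.24 at 04h, 7.90 at 08h, 7.77 at 12h, 7.23 at 16h, 6.37 at 20h and 5.76 at 00h. For the members that were higher the medians were 7.47, 6.25, 6.38, 6.84, 7.71 and 8.64 at the same hours. Between 20h and 08h, a pair of arrays that took no part in choosing the members, the higher members had a median difference of 1.09, with 136 of 254 higher at 20h by 1 unit and 12 lower. The lower members had a median difference of −1.43, with 324 of 499 lower at 20h by 1 unit and 15 higher. Over the 13647 tested probe sets the median was −0.03, with 1528 higher and 1633 lower by 1 unit. Some members that were higher at 00h departed from this course: AT5G15950 and AT3G01060 were higher still at 04h, at 580.7 and 621.5. AT1G19540 had 38 at 04h and AT2G41250 had 147.1, far below their levels at 00h.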

How the data were processed

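RNA of 8 rosette samples was hybridised to 1 Affymetrix array each. The deposited intensity values were made by the authors with MAS5, per the submitters' processing notes; the version is not given in the sources used here, and the files show every array scaled to a trimmed mean of 100. AFFX controls were left out, and log2(intensity + 16) was taken from the deposited values. Of 22746 probe sets, 13513 have 1 gene in the platform's table, 503 several and 8730 none, and symbols were updated through RefSeq TAIR10.1, used for names only. The 40% of probe sets with the lowest mean were left out, and limma 3.58.1 (R 4.3.3) was fitted to all 8 arrays with hour as a factor, 2 residual degrees of freedom, an intensity trend and Benjamini-Hochberg adjustment at 0.05. The fit was run on simulated data drawn with the same spread on every array. That run cannot test whether the lone arrays vary like the pairs. Genes were named by rule: the 14 tested members with 1 gene and the largest mean difference in each direction, up to 4 genes called in each direction for each step, and up to 4 genes of each list with the largest statistic. AKINBETA1, AT3G15630, ATG8E, COR47, EXPA8, MCCA, SWEET2 and UGT78D2 lie outside it and were chosen after their values were seen, as were the genes at the limit of the range rule. The members and lists were chosen with earlier results of these data known. A planned search of promoters for motifs was not run. The number of arrays limits the precision.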

Additional observations from a re-analysis of the deposited data

How the results depend on the processing

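Calls of 00h against 16h kept their direction in every alternative run: none of the 568 was called the opposite way, and no named gene reversed. The 4 arrays of 16h, 20h and 00h alone gave 996 calls (341 higher, 655 lower), with 36 for 20h minus 16h and 48 for 00h minus 20h. A block for the arrays with high hybridisation controls gave 1430 (544 and 886), with 109 and 96 for the steps. The labels do not pair the letters A and B across hours. With the letter as a replicate block there were 1747 calls (665 and 1082), with 109 and 141 for the steps, and A minus B correlated between 00h and 12h at 0.297. No filter on dim probe sets left 14 calls (13 and 1), 0 and 0 for the steps, and lost 44 of the 45 calls among named genes, with every call in a gene list among them. Leaving out 60% gave a median share at 20h of 0.608 for lower members. A pseudocount of 1 gave shares of 0.527 and 0.389, 551 and 2091 members and 11 calls for 00h minus 20h. A pseudocount of 64 gave shares of 0.469 and 0.653, 145 and 153 members and 230 lower calls. Quantile normalization gave a share of 0.593 for lower members and 4 calls for 20h minus 16h. Scaling to 1 median gave 382 higher and 211 lower calls, 470 and 302 members and shares of 0.534 and 0.544. Leaving out either 00h array gave shares of 0.432 to 0.441 for higher and 0.461 to 0.481 for lower members, 452 to 496 higher and 861 to 872 lower members, 801 to 836 calls, 85 to 87 for 20h minus 16h and 83 to 108 for 00h minus 20h. The causes were not tested. Only 2 residual degrees of freedom remain in the fit, 1 in the blocked fits and without a 00h array, and dim probe sets near background limit what can be read from low intensities.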

Other observations

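The genes below met the range rule but were chosen after their values were seen, so they are given as descriptions. Several encode proteins of the plastid. Cpn60beta2, a chaperonin subunit, had 93.6 and 76.4 at 00h, against 392.8 at 16h, and 156.8 at 20h. CHL, the chloroplast lipocalin, had 244.6 and 196.1 at 00h, against 627.6 at 16h. FTSZ2-1, a protein of the plastid division ring, had 93.6 and 87.7 at 00h, against 225.6 at 16h. In all 3 the 00h arrays lay below 20h and 16h. The cytoskeleton genes TUA6 and TUB5, an alpha and a beta tubulin, had 387.3 and 354.3, and 122.2 and 148.8 at 00h, against 1046.5 and 360.4 at 16h. GH9C2, an endoglucanase of the cell wall, had 28.7 and 25.5 at 00h, against 104.5 at 16h.

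Among members that were higher, PAP85, a storage protein of the vicilin type, had 110.8 and 120 at 00h, against 15.3 at 16h, and 58.9 at 20h. ALDH7B4, an aldehyde dehydrogenase that stress is known to raise, had 590.9 and 868.1 at 00h, against 232.9 at 16h. GRXC1, a glutaredoxin, had 630.7 and 622.8 at 00h, against 260.5 at 16h. MTP11, a manganese transporter, had 557.1 and 465.7 at 00h, against 214.5 at 16h, and SKP2A, an F-box protein, had 353.6 and 333.3, against 127.4. Each of these 5 had a 20h value between 16h and both 00h arrays.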
